A study of Mus musculus with 8 samples.

Results

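The core circadian clock was followed through 10 genes: the repressors Per1, Per2, Per3, Cry1, Cry2, Ciart and Nr1d2 and the activators Clock, Arntl and Npas2. All probe sets annotated to these symbols alone were taken, which gave 23 of the 45037 probe sets on the array that are not controls (15 for the repressors and 8 for the activators). Oligodendrocyte precursor cells, the dividing glia that give rise to myelin-forming cells, came from the cerebral hemispheres of 15-day-old embryos of the ICR mouse strain and had grown first for 5 days in D-MEM with 10% fetal bovine serum and then for 48 hr in serum-free basal medium. During those 48 hr some cultures were held at 31.5 °C and the others at 37 °C, while strain, serum step and medium were shared. Each temperature has 4 arrays of total RNA, numbered as replicates 1 to 4. The labels mention 3 mice per group without saying how the 4 replicates arose, so errors and p-values measure only the spread among these arrays, which may be technical. Neither the hour of harvest nor more than 1 sampling time is given, so a shift in phase and a change in level cannot be told apart. In bulk RNA, fewer cells of a type and less RNA per cell cannot be told apart either.

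The mammalian clock is a feedback loop of transcription. CLOCK, or its relative NPAS2, pairs with the Arntl product BMAL1 on E-box sequences and switches on the Per and Cry genes, whose proteins return to the nucleus and repress that pair. REV-ERB nuclear receptors, of which Nr1d2 encodes the beta form, repress Arntl in an interlocked loop, and Ciart encodes CHRONO, a further repressor of the CLOCK and BMAL1 pair. Clocks of this kind run in most cells, glia included, and keep nearly the same period across temperatures.

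The promoters of the members are shown because clock genes are known to be driven through E-boxes and through D-boxes, which bind the factors TEF, DBP, HLF and NFIL3. RefSeq windows (GRCm38.p6) were at hand for 9 of the 10 genes, all but the repressor Per2, 13 windows in all, and the 250 bases before each annotated start were searched on both strands for 7 motifs. These were the E-box CACGTG, the related CACGTT, the D-boxes TTATGTAA and TTACGTAA, the cyclic AMP element core TGACGT, the heat shock pattern GAANNTTC and the ROR element. A match was found in 6 of the 13 windows, in 5 genes, all of them repressors. The share of all windows with any of the 7 motifs was not counted, so no difference between the roles is read from this. Capitals mark the matches, and each sequence runs 5′ to 3′ along the gene's own strand.
Ciart, chr3:95882258-95882374, minus strand: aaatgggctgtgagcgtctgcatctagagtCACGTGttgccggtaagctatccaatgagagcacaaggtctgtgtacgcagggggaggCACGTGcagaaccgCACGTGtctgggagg
Per3, chr4:151044786-151044900, minus strand: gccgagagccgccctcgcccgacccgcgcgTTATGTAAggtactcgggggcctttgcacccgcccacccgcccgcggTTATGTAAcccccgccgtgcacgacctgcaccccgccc
Cry1, chr10:85185079-85185163, minus strand: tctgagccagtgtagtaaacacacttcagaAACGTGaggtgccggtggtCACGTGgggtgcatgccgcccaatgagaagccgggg
Cry2, chr2:92434200-92434265, minus strand: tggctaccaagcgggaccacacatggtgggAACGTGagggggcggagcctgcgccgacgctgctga
Per1, window 1, chr11:69098771-69098800, plus strand: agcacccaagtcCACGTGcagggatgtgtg
Per1, window 2, chr11:69100008-69100037, plus strand: gagctcagcggcTGACGTcggtttccctgg

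The Ciart stretch holds 3 copies of the E-box, and the Per3 stretch 2 copies of the D-box TTATGTAA. Cry1 has 1 E-box and 1 CACGTT, here lying on the opposite strand and so printed as AACGTG, and Cry2 has 1 such CACGTT. Per1 has an E-box in window 1 and the TGACGT core in window 2, and is printed there only around the match because both windows lie inside the annotated extent of the gene. Among all 32851 windows of that length, 6.02% hold CACGTG, 3.85% CACGTT, 0.819% TTATGTAA and 6.47% TGACGT. The heat shock pattern is in 6.69%, the ROR element in 0.332% and TTACGTAA in 0.113%. The windows of Nr1d2, Clock, Arntl and Npas2 held none of the 7 motifs, which says only that these letters are not in those 250 bases.

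Each array gives 1 fluorescence signal per probe set, scaled here to a common trimmed mean, and precision is limited by there being 4 arrays a temperature. Of the 23 clock probe sets 13 reached the signal needed for a test (a mean of 38.3 over all arrays), covering 9 genes. Npas2 was not tested. Signals are scaled probe set signals, changes are differences of log2 signal, 31.5 °C minus 37 °C, ± SE, and adjusted p-values come from limma over all 22519 probe sets tested. Signals of different probe sets cannot be set against each other, so no order of levels among the genes is given. The cold-inducible RNA-binding gene Cirbp, a check of the labels, stood at 1609 ± 201 at 31.5 °C and 424 ± 105 at 37 °C (SD, n = 4 each). Of the markers of the labelled cell type all 8 were bright enough to test, with Pdgfra, the growth factor receptor of precursors, at 2469 ± 365 at 31.5 °C and 1798 ± 168 at 37 °C. Their median log2 change was -0.11, and Gpr17, a receptor of cells leaving the precursor stage, stood at 1509 ± 91.5 at 31.5 °C and 2713 ± 308 at 37 °C.

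Most repressor genes of the clock were higher at 31.5 °C, and no activator passed the test. Of the 7 repressors 6 rose (Per2, Per3, Cry1, Cry2, Ciart and Nr1d2), by 1.31-fold to 1.98-fold, while Per1 had a value below 0. Of the 13 clock probe sets tested 6 rose, 0 fell and 7 did not pass. Of all probe sets tested, 6.52% rose and 6.83% fell. At an unadjusted p under 0.05 in limma 6 were higher and 2 lower, for which the share of all probe sets was not counted. With the replicate number as a block in the fit, 6 rose and 1, that of Per1, fell, against 12.4% and 13.9% of all probe sets. The 4 signals at 31.5 °C all lay above the 4 at 37 °C for 5 of the 13, as they did for 10.9% of all probe sets tested. With median scaling of the arrays, 3 clock probe sets rose (Per2, Per3 and Ciart), 4.52% of all probe sets rose and 2.84% fell, so that 61.4% of all calls were rises against 48.9% before. The calls are close to the threshold: that of Per2 held in 17 of 23 alternative settings, Per3 in 14 of 22, Cry1 in 12 of 24, Cry2 in 18 of 24, Ciart in 20 of 23 and Nr1d2 in 15 of 24, and none of the 6 changed sign in any of them. With 1 array left out, between 1 (without replicate 3 at 31.5 °C) and 4 probe sets rose. The genes were chosen with results of these data known, so the counts are a description.

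**Figure D1:**
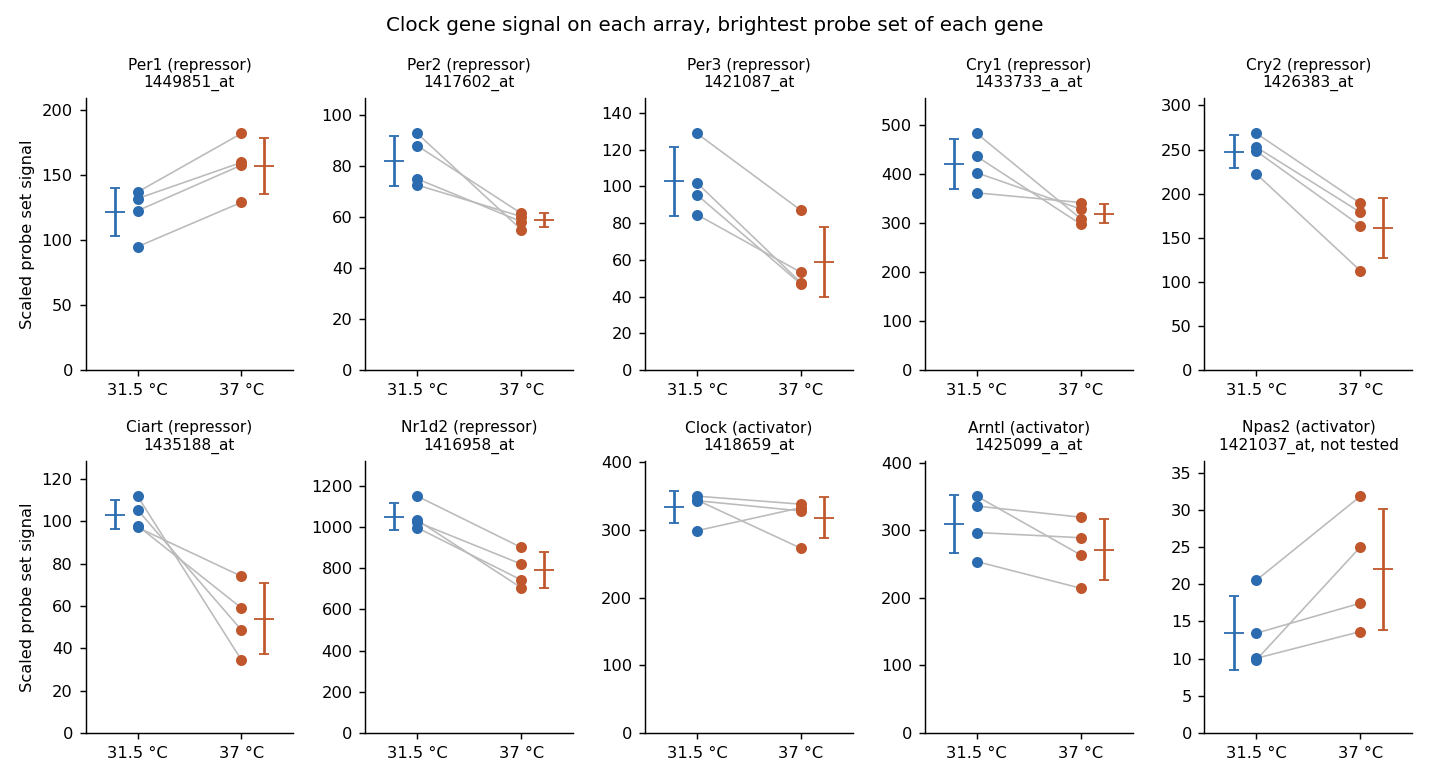
Scaled probe set signal (vertical axis, linear, from 0) of the brightest probe set of each clock gene on the 4 arrays at 31.5 °C (left, blue) and the 4 at 37 °C (right, orange). Grey lines join arrays of the same replicate number and bars give mean ± SD. Lines slope down to the right in 4 of 4 pairs for Per2, Per3, Cry1, Cry2, Ciart, Nr1d2 and Arntl, and up in 4 of 4 for Per1 and Npas2.

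Per2 (probe set 1417602_at), which encodes a scaffold of the repressor complex, had signals of 72.6, 88.1, 92.9 and 75.0 at 31.5 °C in replicates 1 to 4, against 60.3, 61.5, 55.2 and 58.3 at 37 °C. All cold arrays lay above all warm ones, and Per2 rose by 0.48 ± 0.10 (1.39-fold, adjusted p = 0.0198). The call was lost without replicate 2 at 31.5 °C (0.44, adjusted p = 0.0568) or replicate 3 at 31.5 °C (0.41, adjusted p = 0.0564), and with an intensity trend in the variance (adjusted p = 0.0508). It was also lost in the blocked fit without pair 2 or pair 3 (adjusted p = 0.0681 and 0.0568). Both other probe sets of Per2 were too dim for the test. Of these 1457350_at averaged 30.96 ± 4.33 at 31.5 °C and 27.9 ± 5.34 at 37 °C, and 1417603_at 24.96 ± 6.35 at 31.5 °C and 23.4 ± 9.80 at 37 °C, with overlapping groups. With the mean of its 3 probe sets Per2 had 0.26 (adjusted p = 0.253).

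Per3 (1421087_at), a period gene whose loss in mice leaves the central rhythm largely intact, had 129, 95.3, 84.6 and 102 at 31.5 °C, against 86.9, 46.9, 53.2 and 47.6 at 37 °C. The groups overlapped, since replicate 1 at 37 °C was above replicate 3 at 31.5 °C, and each cold array was above the warm array of its own number. Per3 rose by 0.84 ± 0.21 (1.79-fold, adjusted p = 0.0343, and 0.00593 with the replicate block). The call was lost with any single array left out other than replicate 1 at 37 °C (0.73 to 0.93, adjusted p up to 0.0886). In the blocked fit the Per3 call held with each pair left out in turn (adjusted p up to 0.0302). Its 5 other probe sets, all under the signal needed for a test, had values between 0.25 ± 0.28 (1441445_at) and 0.62 ± 0.42 (1458176_at), all above 0. The dimmest, 1421086_at, averaged 16.7 ± 7.14 at 31.5 °C and 12.1 ± 6.64 at 37 °C.

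Per1 (1449851_at), the period gene that in many cells also answers quickly to cyclic AMP signals, had lower signals in the cold. Its signals were 95.0, 132, 137 and 123 at 31.5 °C, against 129, 160, 182 and 158 at 37 °C. Each cold array lay below the warm array of its number, by 0.44, 0.28, 0.41 and 0.36 on the log2 scale in pairs 1 to 4, although the groups overlapped. Its change of -0.37 ± 0.15 did not pass (adjusted p = 0.128) and passed with the replicate block (adjusted p = 0.0139). The change of Per2 exceeded that of Per1 by 0.71, 0.79, 1.16 and 0.73 in the 4 pairs, a comparison chosen after the values were seen and not tested.

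The cryptochromes, which bind CLOCK and BMAL1 directly and are their strongest repressors, rose together. Cry1 (1433733_a_at) had 436, 362, 483 and 403 at 31.5 °C, against 298, 342, 309 and 329 at 37 °C. The groups did not overlap, but in pair 2 the difference was only 0.08, against 0.29 to 0.64 in the other pairs. Cry1 rose by 0.39 ± 0.11 (1.31-fold, adjusted p = 0.0433), the called change closest to the threshold among the members. The call was lost with any single array left out other than replicate 2 at 31.5 °C (0.32 to 0.43, adjusted p up to 0.110). It was also lost in the blocked fit without pair 1, 3 or 4 (adjusted p up to 0.142). Cry2 (1426383_at) had 268, 248, 253 and 222 at 31.5 °C, against 189, 164, 179 and 113 at 37 °C. Replicate 4 was the lowest array at each temperature, and no warm array reached the cold ones. Cry2 rose by 0.65 ± 0.16 (1.57-fold, adjusted p = 0.0326, and 0.00932 with the block). Leaving out replicate 4 at 37 °C, the array scaled up most (factor 1.60), gave a Cry2 change of 0.48 (adjusted p = 0.0285). Without replicate 1, 2 or 3 at 31.5 °C, or replicate 2 at 37 °C, its adjusted p was at most 0.0824 and no longer under 0.05, at changes of 0.61, 0.64, 0.64 and 0.66. With each pair left out in turn of the blocked fit, the Cry2 call held (adjusted p up to 0.0386). The change of Cry2 exceeded that of Cry1 in 2 of 4 pairs and was smaller in the others.

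Ciart (1435188_at), whose promoter stretch above carries the 3 E-boxes, had 105, 97.9, 97.1 and 112 at 31.5 °C, against 48.6, 59.0, 74.0 and 34.4 at 37 °C. The cold arrays were close together, with a coefficient of variation of 6.73%, while the warm arrays spread over 30.9%. The lowest warm array, replicate 4, was also the array scaled up most (factor 1.60). Without that array the Ciart change was 0.79 (adjusted p = 0.0194). Ciart rose by 0.99 ± 0.21 (1.98-fold, adjusted p = 0.0179), the largest change among the clock probe sets tested. The pairs ranged widely, with 1.12, 0.73, 0.39 and 1.70. The call held with each of the 8 arrays left out in turn (adjusted p up to 0.0466). It was lost without the signal filter (adjusted p = 0.0627) and, in the blocked fit, without pair 1 or pair 2 (adjusted p = 0.0728 and 0.0566).

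Nr1d2 (1416958_at), the receptor gene that represses Arntl, had 1025, 997, 1151 and 1034 at 31.5 °C, against 821, 743, 902 and 706 at 37 °C. The groups did not overlap and the pairs agreed closely, at 0.32, 0.42, 0.35 and 0.55. Nr1d2 rose by 0.41 ± 0.10 (1.33-fold, adjusted p = 0.0311), a call lost with any single array left out other than replicate 3 at 37 °C (0.36 to 0.44, adjusted p up to 0.0892). In the blocked fit the Nr1d2 call held with each pair left out in turn (adjusted p up to 0.0473). Its dimmer probe set 1416959_at averaged 84.8 ± 5.58 at 31.5 °C and 72.0 ± 16.3 at 37 °C and did not pass (0.27 ± 0.16, adjusted p = 0.328).

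**Figure D2:**
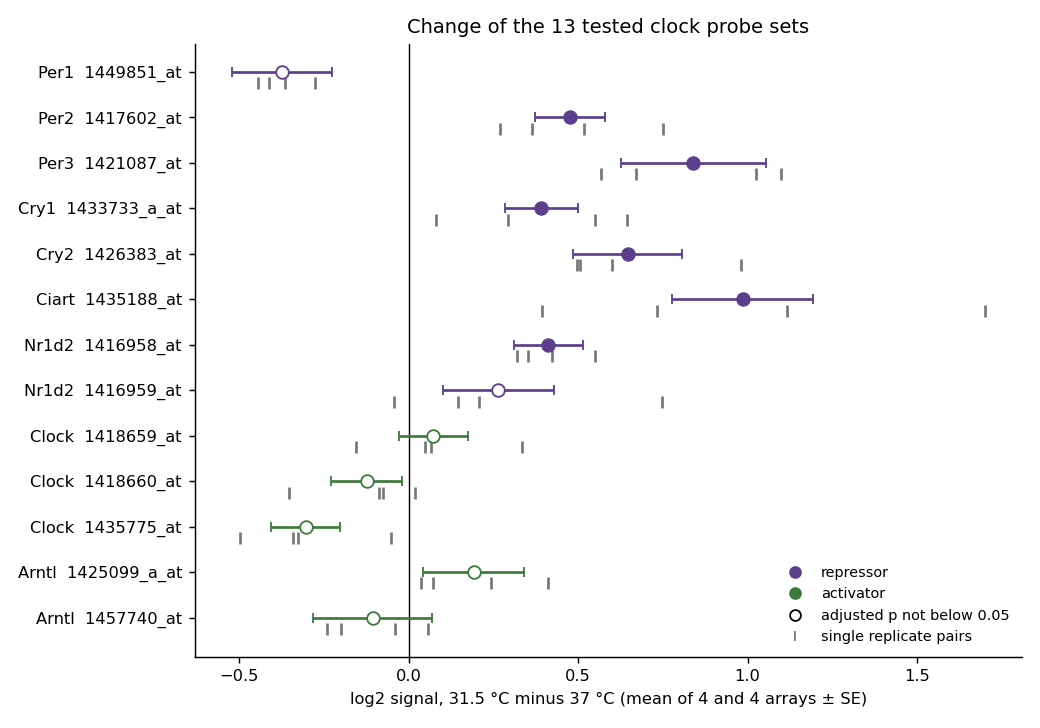
Change of each of the 13 tested clock probe sets (horizontal axis, log2 signal, 31.5 °C minus 37 °C; point and bar, mean ± SE; grey ticks, the 4 replicate pairs). Filled points passed an adjusted p of 0.05: they are 6 repressor probe sets, from 0.39 for Cry1 to 0.99 for Ciart, while the 5 activator probe sets are open and lie between -0.30 and 0.19.

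Among the activators, Clock, which encodes a DNA-binding partner of BMAL1, has 4 probe sets. The brightest, 1418659_at, had 343, 299, 350 and 344 at 31.5 °C, against 328, 333, 338 and 273 at 37 °C. The groups overlapped throughout, and the change was 0.07 ± 0.10 (adjusted p = 0.683). The probe set 1418660_at averaged 140 ± 17.0 at 31.5 °C and 152 ± 5.30 at 37 °C (-0.12 ± 0.10, adjusted p = 0.479). The probe set 1435775_at had 99.6, 109, 90.5 and 105 at 31.5 °C, against 125, 138, 128 and 109 at 37 °C. It was lower in 4 of 4 pairs without passing (-0.30 ± 0.10, adjusted p = 0.0841, and 0.0549 with the block). The dim probe set 1439314_at, at 21.2 ± 10.4 at 31.5 °C and 25.3 ± 9.23 at 37 °C, was not tested. The probe sets of Clock thus differ in sign, and with their mean the gene had -0.16 (adjusted p = 0.433).

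Arntl (1425099_a_at), the gene of BMAL1, had 336, 350, 297 and 254 at 31.5 °C, against 319, 263, 289 and 214 at 37 °C. Each cold array was above the warm array of its number, by 0.04 to 0.41, and the groups overlapped (0.19 ± 0.15, adjusted p = 0.441, and 0.155 with the block). Its other probe set, 1457740_at, averaged 46.7 ± 10.3 at 31.5 °C and 49.7 ± 7.35 at 37 °C (-0.10 ± 0.18, adjusted p = 0.742). Npas2, which can stand in for Clock in the brain, was dim. Its brighter probe set 1421037_at had 13.4, 9.86, 10.1 and 20.6 at 31.5 °C, against 17.5, 25.04, 13.6 and 31.9 at 37 °C, lower in 4 of 4 pairs. The other, 1421036_at, was at 8.87 ± 2.41 at 31.5 °C and 11.9 ± 10.8 at 37 °C, with 2 of 4 arrays at each temperature at or under the floor of 9.80. Of the 5 activator probe sets tested, 0 passed in limma, 1 (1435775_at of Clock) had an unadjusted p under 0.05, and 0 passed with the replicate block.

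Taking 1 value a gene, that of its brightest probe set, the 7 repressors had a median change of 0.48, with 6 of 7 above 0. The 3 activators had a median of 0.07, with 2 of 3 above 0, and all probe sets tested -0.00499. Within pairs 1 to 4 the repressor median was 0.51, 0.52, 0.50 and 0.55, and the activator median 0.07, -0.16, 0.04 and 0.24. The repressor median exceeded the activator median by 0.44, 0.67, 0.46 and 0.31 in the 4 pairs and by 0.40 over all arrays. Since the genes were chosen with results known, no p is given for these medians, and the 3 activators include Npas2, which is too dim to test.

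**Figure D3:**
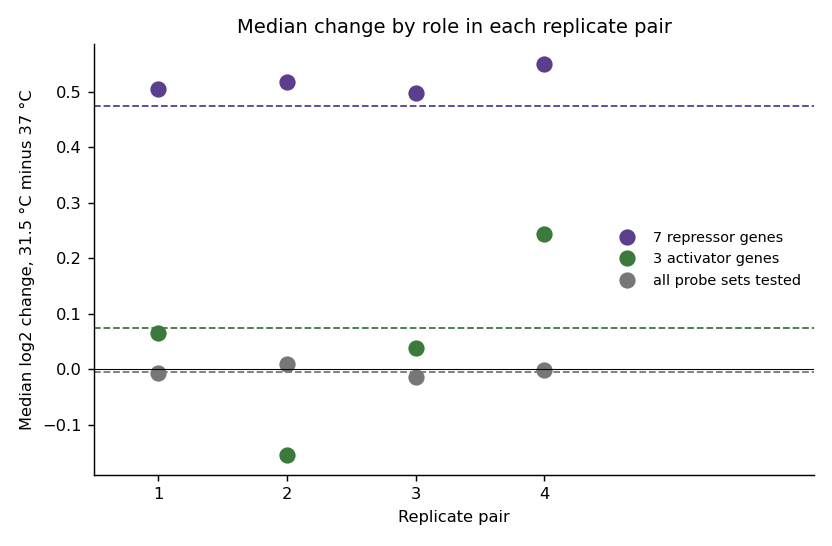
Median log2 change (vertical axis, 31.5 °C minus 37 °C) of the 7 repressor genes, the 3 activator genes and all probe sets tested in each of the 4 replicate pairs (horizontal axis); dashed lines give the median over all arrays. The repressor points lie between 0.50 and 0.55, and the activator points between -0.16 and 0.24.

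Genes around the core loop were read from a list of 28, of which 25 had a probe set of their own and 22 were tested. Each gene was represented by its brightest probe set alone. Of these 2 rose, 1 fell and 19 did not pass, at a median of 0.08, and with the replicate block 4 rose and 1 fell. Of all probe sets tested, 6.52% rose and 6.83% fell (12.4% and 13.9% with the block). Tef (1424175_at), a bZIP activator of D-box genes, had 841, 819, 781 and 763 at 31.5 °C, against 554, 452, 475 and 439 at 37 °C. The groups lay far apart, and Tef rose by 0.74 ± 0.10 (1.67-fold, adjusted p = 0.00273). Nfil3 (1418932_at), the repressor that competes for the same D-box, had 265, 279, 282 and 289 at 31.5 °C, against 374, 437, 380 and 515 at 37 °C. All cold arrays were below all warm ones, and Nfil3 fell by 0.60 ± 0.11 on the log2 scale (adjusted p = 0.0118). Both calls held in all 24 alternatives run. With the mean of its probe sets Tef rose by 0.58 (adjusted p = 0.00643 in limma). The other D-box activators did not pass: Dbp averaged 606 ± 118 at 31.5 °C against 613 ± 79.3 at 37 °C (-0.03 ± 0.15, adjusted p = 0.936), and Hlf had 0.20 ± 0.14 (adjusted p = 0.384).

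Among the nuclear receptor genes that act on Arntl, Nr1d1, which encodes the alpha form of REV-ERB, had 121, 136, 176 and 152 at 31.5 °C, against 90.7, 121, 85.9 and 68.7 at 37 °C. It rose by 0.69 ± 0.18 (1.61-fold, adjusted p = 0.0386), with groups that overlapped narrowly. The call held with 2 of the 8 arrays left out, replicate 1 at 31.5 °C or replicate 2 at 37 °C, and was lost with each of the others (0.56 to 0.72, adjusted p up to 0.101). The opposing activators Rora and Rorb did not pass. Rora averaged 247 ± 9.57 at 31.5 °C and 199 ± 24.3 at 37 °C (0.32 ± 0.10, adjusted p = 0.0720, and 0.0542 with the block). It was higher in 4 of 4 pairs, and its groups did not overlap. Rorb averaged 110 ± 25.01 at 31.5 °C and 83.1 ± 22.6 at 37 °C (0.43 ± 0.22, adjusted p = 0.244, and 0.0200 with the block). It was also higher in 4 of 4 pairs, with overlapping groups. None of the 5 kinases tested, which phosphorylate PER proteins or their partners, passed in limma, with or without the block, and 0 had an unadjusted p under 0.05. Csnk1e, 1 of the casein kinases that mark PER for breakdown, had 0.19 ± 0.09 (adjusted p = 0.217), and Csnk1d 0.00195 ± 0.11 (adjusted p = 0.994). The 3 ubiquitin enzymes tested did not pass either (0 calls with the block and 0 at an unadjusted p under 0.05), and Usp2 was at 296 ± 40.4 at 31.5 °C and 298 ± 29.1 at 37 °C. Tipin, a replication fork gene listed as the partner of Timeless, had 0.44 ± 0.13 (adjusted p = 0.0505, and 0.0173 with the block).

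**Figure D4:**
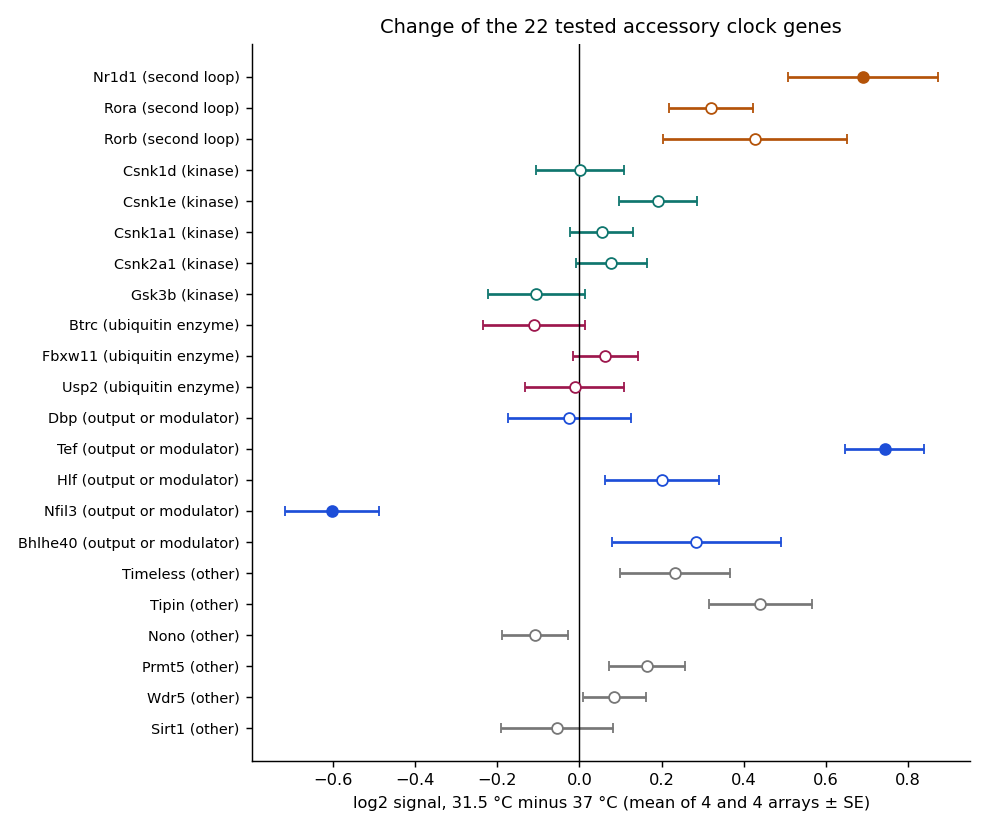
Change of the 22 tested accessory clock genes (horizontal axis, log2 signal, 31.5 °C minus 37 °C; point and bar, mean ± SE; colours, the groups named beside each gene). Filled points passed an adjusted p of 0.05: Tef at 0.74 and Nr1d1 at 0.69 to the right of 0, Nfil3 at -0.60 to the left.

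The genes whose log2 signals over the 8 arrays were most like those of 3 members were looked up among all single-gene probe sets tested. The arrays share temperature and replicate number, so the correlations describe these arrays only. Nearest to Per2 were Etf1, a translation termination gene (r = 0.970), Fastkd3 (0.970), Ube3c (0.964), Cdk9 (0.964) and the neurofilament gene Nefm (0.963). Nearest to Ciart were Gspt1, which encodes the partner of the Etf1 product in termination (0.994), Arf2 (0.993), Dusp22 (0.992), Nup210 (0.991) and Pkdcc (0.982). Nearest to Arntl were Rnf7 (0.993), Ndufa8 (0.977), Impact (0.975), Sdhaf4 (0.974) and Mrpl41 (0.972). No clock member was among the 5 nearest of Per2, Ciart or Arntl, the only members looked up.

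Markers of cell types in the cultures were read beside these changes, each by its brightest probe set. Over all probe sets tested, 6.52% rose and 6.83% fell, or 12.4% and 13.9% with the block. All 6 tested markers of myelinating oligodendrocytes fell, Mag, a myelin adhesion gene, to 197 ± 25.4 at 31.5 °C, against 649 ± 258 at 37 °C. Summed over the list of 7 on the array, they lay between 9494 and 13590 at 31.5 °C and between 18864 and 23515 at 37 °C. That sum is mostly Mbp (mean 5474 at 31.5 °C) and Cnp (4837). The sums of signals given here and below follow the brightest probe sets of each list. They do not measure the amount of a cell type. Of 8 precursor markers 2 rose and 1, Gpr17, fell (-0.84 ± 0.10, adjusted p = 0.00217), with sums of 15362 to 17951 at 31.5 °C and 15758 to 19113 at 37 °C. Of 8 astrocyte markers 1 fell (5 with the block), with sums of 9053 to 16195 at 31.5 °C and 12306 to 21985 at 37 °C. Of 8 microglia markers 0 passed in limma, with 2 lower at an unadjusted p under 0.05 and 4 lower with the block, and sums of 8170 to 15128 at 31.5 °C and 11446 to 20715 at 37 °C. Of 8 neuron markers 1 rose and 1 fell (1 and 3 with the block), with sums of 5342 to 7824 at 31.5 °C and 5883 to 9699 at 37 °C. Of 5 tested endothelial and fibroblast markers 0 passed in limma (2 were lower with the block, 0 at an unadjusted p under 0.05 without it), and the vessel gene Pecam1 was under the floor, at a mean of 4.24 at 31.5 °C and 4.59 at 37 °C. The part of cell makeup in the clock results was not tested.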

How the data were processed

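Oligodendrocyte precursor cultures of 2 temperatures were read on 8 Affymetrix mouse arrays. The deposited values are linear probe set intensity values made with MAS5, per the submitters' processing notes; version and scaling target are not given in the sources used here, and no detection calls were used. Trimmed means of the arrays differed by up to 1.89 times. The lowest was that of replicate 4 at 37 °C. Of 45101 probe sets, 64 controls were left out. Genes were named from GEO's platform annotation: 34945 probe sets carried 1 symbol, 932 several and 9160 none, and no member had a probe set with several. Each array was scaled to the mean 2% trimmed mean (factors 0.848 to 1.60), values under the 25th percentile (9.80) were raised to it, log2 was taken, and the 22519 probe sets with a mean at or above the median (38.3) were tested singly with limma 3.58.1 in R 4.3.3 (lmFit, eBayes, two-sided, Benjamini-Hochberg, threshold 0.05). Temperature was the only term. Dim members were described from the fit without the filter.

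Pairing by replicate number was checked on each array's deviations from its group mean. Arrays of 1 number correlated across probe sets at 0.522, 0.385, 0.442 and 0.578, against at most 0.00334 for other numbers, so the numbers pair the arrays and the blocked fit stands beside results it changes. The procedure was tested on simulated data. Members, lists and the rule for named genes (all members, list genes past the threshold, the 5 nearest genes of Per2, Ciart and Arntl, up to 3 markers a list) were chosen with earlier results of these data known. Promoter sequences are from RefSeq on GRCm38.p6. The alternatives were other scaling, floors, filters, probe set summaries and variance models, array weights, the replicate block, and leaving out arrays or pairs. Plots used matplotlib 3.10.9 (Python 3.11.15).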

Additional observations from a re-analysis of the deposited data

Results flagged for a closer look

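On the log2 scale 2 of the 46 groups of 4 arrays examined over the 23 clock probe sets had an array far from the other 3, both of them for the brightest probe set of Clock (1418659_at). At 31.5 °C replicate 2 stood at 299, against 343 to 350 in the other arrays (ratio of the gap to the range 0.877, above Dixon's critical value). At 37 °C replicate 4 stood at 273, against 328 to 338 in the others (ratio 0.860). Chance alone marks about 1 group in 20.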

How the results depend on the processing

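The signs of the 6 called clock changes, of Per1, Tef, Nfil3 and Nr1d1 were kept in all alternatives run, but the calls lie close to the threshold. In place of 6 clock genes rising and 0 falling, 3 rose with median scaling, with the 70th percentile filter (where the dimmer members were not tested) or with probe sets averaged per gene, 2 without the filter, and 1 to 4 with 1 array left out (1 without replicate 3 at 31.5 °C). Counts of probe sets were the same. With 1 pair left out of the blocked fit 4 to 5 rose and 0 to 2 fell. With array weights 1 fell (Clock 1435775_at), and with the replicate block 1 (Per1); the block changed no other call of a member. All probe sets called numbered 3007, against 1656 with median scaling, 1787 with 1 probe set a gene, 1286 with the mean of probe sets, 5938 with the replicate block and 1598 to 2754 with 1 array left out. Leaving out a pair gave 3163 to 3580. Of all probe sets tested, 2417 of 45037 were called without the filter and 2621 of 13511 with the 70th percentile filter, against 3007 of 22519. With 1 probe set a gene 11528 were tested, and with the mean of probe sets 11070. The drop in clock calls thus goes with changes in the calls over all probe sets. Median scaling moved the median of all probe sets by 0.09 on the log2 scale.

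The repressor median of 0.48 was 0.54 with quantile scaling, 0.56 with median scaling, 0.39 with the mean of probe sets, 0.41 to 0.53 with 1 array left out and 0.43 to 0.54 with 1 pair left out (0.51 without pair 4). The activator median of 0.07 was -0.16 with the mean of probe sets, 0.16 with median scaling, and 0.00175 to 0.13 with 1 array left out (-0.01 to 0.12 with 1 pair left out); the repressor excess of 0.40 was 0.56 with the mean of probe sets, and 0.34 to 0.47 with 1 array left out (0.35 to 0.53 with 1 pair left out). Accessory genes that rose numbered 4 with quantile scaling, the mean of probe sets, array weights or the replicate block, 1 with median scaling or without the filter, 1 to 2 with 1 array left out and 1 to 3 with 1 pair left out. Small values turned sign for Clock 1418659_at (-0.013 without pair 4 in the blocked fit) and for Arntl 1457740_at (-0.23 to 0.034 with 1 array left out, above 0 only without replicate 1 at 31.5 °C). The mean of all probe sets of Clock was -0.16, which is not a value of 1418659_at. Except where fewer probe sets or arrays entered, the cause was not tested. Signal limits Npas2 and the dim probe sets of Per2 and Per3.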
